A study of Columba livia with 10 samples.

Results

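Interferon-stimulated genes are antiviral and immune genes whose transcription is raised by interferons, and their levels were followed here in the cerebellum of racing pigeons of the homer breed, which are kept for their return to the loft. The genes were chosen by name, with earlier results of these data known. Of 9 named genes, 8 had a row among the 22547 genes of the count tables: IFIH1, HELZ2, PARP9, DTX3L, RSAD2, EIF2AK2, IRF1 and PARP14. IFIT5, an RNA-binding effector, had none under that symbol and was not analysed here. The race group held 5 birds killed on their return from a competition flight of 300 km, and the control group consisted of 5 age-matched birds that rested in the loft on race day. Sex and age in years were not given in the labels used here, and both groups were kept in 1 loft, trained by the widowhood method and fed for competition. Total RNA of whole cerebellum was sequenced, 1 library per bird.

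Vertebrate cells make type I interferons when sensors such as IFIH1 meet viral RNA. The interferons bind the receptor pair IFNAR1 and IFNAR2, and the kinases JAK1 and TYK2 then activate transcription factors that switch on a broad set of genes. In brain, endothelial cells, microglia and neurons can all respond, and a low level of many of these genes is kept without infection.

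The libraries held 17953704 to 23344086 counts in genes, and 14172 genes were tested. Values are CPM, counts scaled to a common library size with TMM factors, and are not corrected for gene length, so levels are compared between libraries and not between genes. In 9 of the 10 samples the title and the attached table carry different library numbers, and groups here are those of the record holding the table. In control 3, control 4 and control 5, 92 to 94 of 195 W-linked genes, which female birds carry, reached 1 CPM, against 24 to 32 in the other 7 libraries, all 5 race libraries among them. Control 1 had the lowest median Spearman correlation to the other libraries, 0.879, and control 4 held forebrain transcripts, with TBR1 at 76.4 CPM. The comparison asked whether the cerebellum of birds that had flown carried more or less of these transcripts than that of rested birds.

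Of the 8 interferon-stimulated genes, 7 had higher fitted levels in race than in control birds, and none passed the test over all genes. The median log2 fold change of the 8 genes was 0.54, against -0.026 over all genes tested. Of all genes tested, 47.4% had a value above 0. With Benjamini-Hochberg adjusted p-values from edgeR's quasi-likelihood test, 0 of the 8 genes passed 0.05, as did 0% of all genes. At an unadjusted p under 0.05, 1 of the 8 was higher in race birds, IFIH1, and 0 were lower, against 6.19% and 7.14% of all genes. Limma voom called 0 of the 8 after adjustment, as it did 0% of all genes, and had 5 of the 8 higher at an unadjusted p under 0.05, against 7.2% of all genes. DESeq2 called 0 of the 7 to which it gave an adjusted p, against 1.86% of all genes, and had 3 of the 8 higher at an unadjusted p under 0.05, against 6.78%. In 0 of the 8 genes did the groups fail to overlap, while in 2.65% of all genes every race library lay above every control library. The 8 genes are not independent of each other, since PARP9 and DTX3L are neighbours. They were chosen with earlier results of these data known, so their median and counts are description only.

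**Figure D1:**
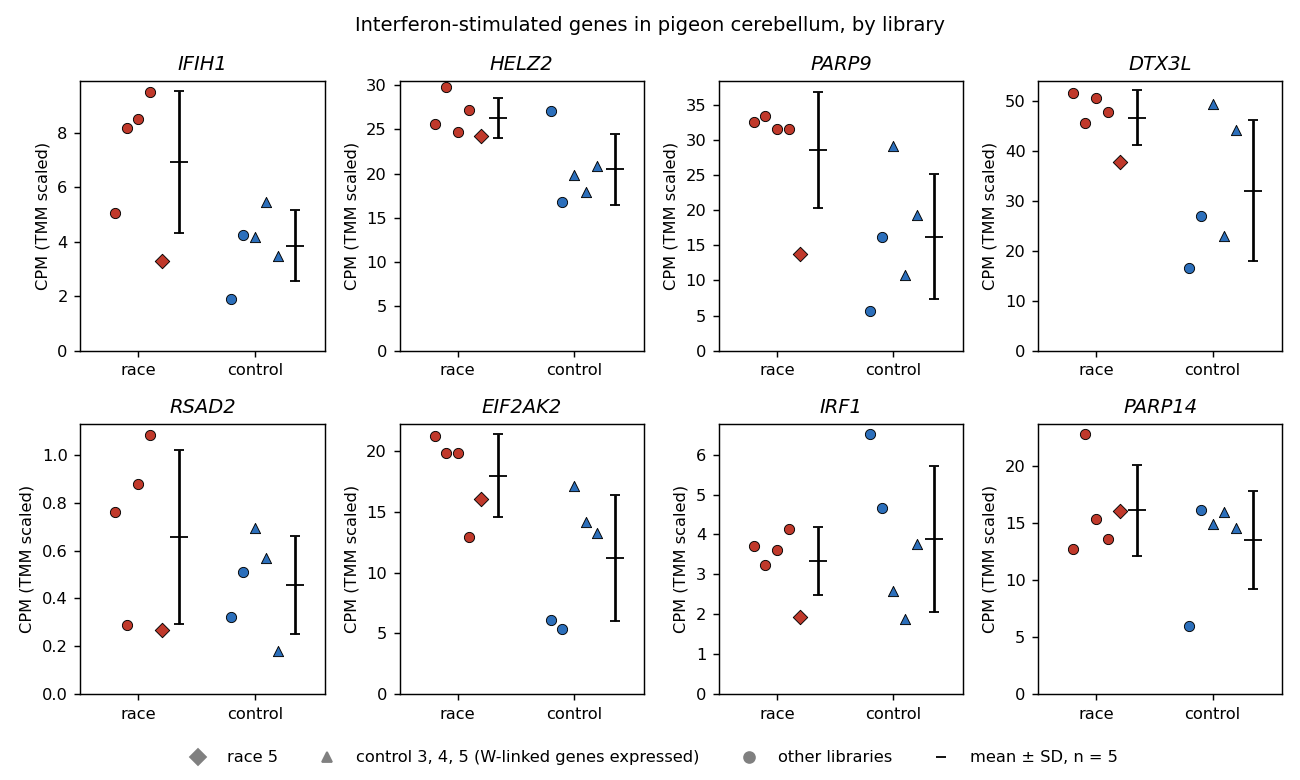
CPM of the 8 interferon-stimulated genes in each library, race birds on the left (red) and control birds on the right (blue), with the mean and SD of the 5 libraries of each group. Race 5 (diamond) is the lowest race library in 6 of the 8 genes, and control 3, control 4 and control 5 (triangles) are the libraries that expressed W-linked genes.

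IFIH1 encodes MDA5, a helicase that detects long double-stranded RNA in the cytosol. IFIH1 had 5.07, 8.18, 8.51, 9.48 and 3.31 CPM in race 1 to race 5, against 1.89, 4.26, 4.16, 5.45 and 3.49 CPM in control 1 to control 5. Race 2, race 3 and race 4 lay above every control library, race 1 lay just under control 4, and race 5 was lower than all controls except control 1. IFIH1 averaged 6.91 ± 2.60 CPM in race and 3.85 ± 1.30 CPM in control libraries (SD, n = 5 each). The log2 fold change was 0.84 ± 0.36 (SE), or 1.79-fold, with an adjusted p of 0.356 by edgeR. An exact two-sided permutation test of its log2 CPM gave p = 0.0794, where 0.00794 is the smallest value this design can give.

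Among the effectors, EIF2AK2 encodes PKR, a kinase that binds double-stranded RNA and stops translation by phosphorylating the initiation factor eIF2. EIF2AK2 had 21.3, 19.9, 19.9, 12.9 and 16.0 CPM in race 1 to race 5, against 6.10, 5.39, 17.1, 14.2 and 13.3 CPM in control 1 to control 5. Control 1 and control 2 stood at the bottom, and the other 3 controls lay inside the range of the race libraries. The log2 fold change was 0.68 ± 0.33, with an adjusted p of 0.387 by edgeR.

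HELZ2 encodes a helicase that also serves as a coactivator of nuclear receptors. HELZ2 had 25.6, 29.8, 24.7, 27.2 and 24.3 CPM in race 1 to race 5, against 27.0, 16.8, 19.9, 17.9 and 20.8 CPM in control 1 to control 5. It was the steadiest of the 8 in race birds, with an SD of 8.52% of the mean, and all controls except control 1 lay below all race libraries. The log2 fold change was 0.36 ± 0.17, with an adjusted p of 0.384 by edgeR, and the exact permutation test gave p = 0.0317 without adjustment.

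RSAD2 encodes viperin, a radical enzyme that makes a chain-terminating nucleotide. RSAD2 was near the limit of detection, with 4 to 23 counts per library. It had 0.76, 0.29, 0.88, 1.08 and 0.27 CPM in race 1 to race 5, against 0.32, 0.51, 0.69, 0.57 and 0.18 CPM in control 1 to control 5. The groups interleaved, and the log2 fold change of 0.53 ± 0.51 (adjusted p = 0.625, edgeR) was about as large as its standard error. Without race 4, the library in which RSAD2 was highest, it was 0.26. CMPK2, the adjacent gene, which encodes a mitochondrial nucleotide kinase and is induced together with RSAD2 in mammals, stood at 0.22 ± 0.35. The spans of RSAD2 and CMPK2 overlap in the gene table, so reads at their shared end may be uncounted.

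Genes of ADP-ribosylation form a cluster on chromosome 7. PARP9 and DTX3L lie next to each other with overlapping ends, and PARP14 lies beyond them with 1 protein-coding gene in between. PARP9, an ADP-ribosyltransferase family member, and DTX3L, a ubiquitin ligase, work as a complex in human cells. PARP9 had 32.5, 33.3, 31.6, 31.5 and 13.8 CPM in race 1 to race 5, against 5.72, 16.2, 29.2, 10.8 and 19.3 CPM in control 1 to control 5. The first 4 race libraries lay within 2 CPM of each other and above all controls, while race 5 lay below control 2, control 3 and control 5. PARP9 averaged 28.6 ± 8.27 CPM in race and 16.2 ± 8.90 CPM in control libraries, and the log2 fold change was 0.81 ± 0.39, or 1.76-fold (adjusted p = 0.385, edgeR).

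DTX3L had 51.5, 45.5, 50.5, 47.8 and 37.6 CPM in race 1 to race 5, against 16.6, 26.9, 49.4, 23.0 and 44.1 CPM in control 1 to control 5. Control 3 and control 5 lay among the race libraries and the other 3 controls below them all. The log2 fold change was 0.54 ± 0.27 (adjusted p = 0.405, edgeR). PARP14, which adds single ADP-ribose units to proteins, had 12.7, 22.8, 15.4, 13.6 and 16.0 CPM in race 1 to race 5, against 5.94, 16.1, 14.9, 16.0 and 14.6 CPM in control 1 to control 5. Apart from race 2 on the high side and control 1 on the low side, all libraries lay between 12.7 and 16.1 CPM. Its log2 fold change was 0.25 ± 0.28 (adjusted p = 0.672, edgeR), or 0.048 without control 1.

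IRF1, a transcription factor induced above all by interferon gamma, was the 1 gene with a negative value. IRF1 had 3.70, 3.24, 3.62, 4.15 and 1.92 CPM in race 1 to race 5, against 6.53, 4.65, 2.58, 1.87 and 3.76 CPM in control 1 to control 5. The controls spanned the race libraries on both sides. The log2 fold change was -0.22 ± 0.37 (adjusted p = 0.792, edgeR), and it was 0.032 without control 1, the library in which IRF1 was highest.

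Race 5 stood apart from the other race birds in the mean level of these genes. It had the lowest value of the 5 race libraries for IFIH1, HELZ2, PARP9, DTX3L, RSAD2 and IRF1. The margin was small for HELZ2 (24.3 CPM, against 24.7 in race 3) and RSAD2 (0.27 CPM, against 0.29 in race 2). For EIF2AK2 race 5 lay above race 4, and for PARP14 only race 2 was higher among race libraries. How often race 5 was lowest over all genes was not counted. The mean z-score of the 8 genes, a level in SD units over the 10 libraries, was -0.35 in race 5 and 0.50 to 0.68 in the other 4 race libraries, against -1.04 to 0.11 in the controls. Without race 5 the median log2 fold change was 0.67, against -0.026 over 14352 genes tested, and 7 of 8 genes stayed above 0, as did 47.4% of all genes. IFIH1 then had a log2 fold change of 1.02 ± 0.34 and PARP9 one of 0.99 ± 0.37. These 2 of the 8 genes were higher at an unadjusted p under 0.05, against 4.81% of all genes. PARP9 was the 1 gene of the 8 in which the 4 race libraries lay above all controls, as in 3.13% of all genes. No gene passed over all genes without race 5 either, where 0% were called, and the adjusted p was 0.519 for IFIH1 and 0.528 for PARP9. The exact permutation test gave p = 0.0238 for IFIH1 and 0.0159 for PARP9, without adjustment. Race 5 was singled out with its values known, so these p-values describe the 4 libraries and are no separate support.

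**Figure D2:**
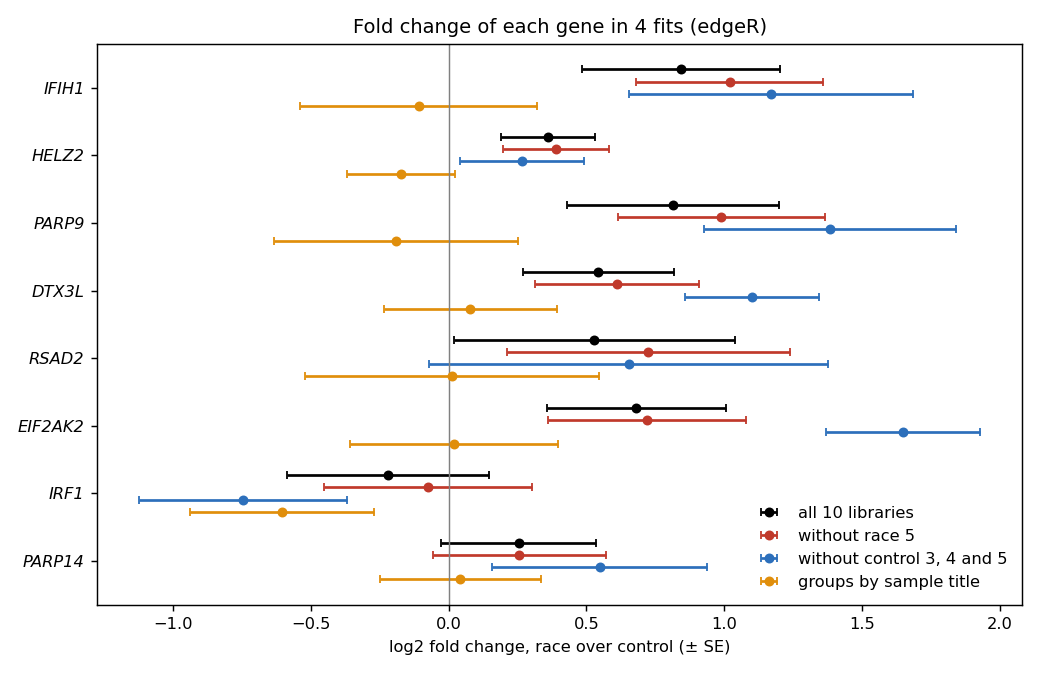
Log2 fold change of each of the 8 genes, race over control, with its standard error from edgeR, in fits with all 10 libraries (black), without race 5 (red), without control 3, control 4 and control 5 (blue) and with groups taken from the sample titles (orange). Values of 7 genes lie above 0 in the first 3 fits and scatter around 0 in the last.

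The size of the difference rested on which controls were used. Control 1 was the lowest control library for IFIH1, PARP9, DTX3L and PARP14. Without control 3, control 4 and control 5 the race birds were set against control 1 and control 2, so that no library expressed W-linked genes. The median log2 fold change of the 8 genes was then 0.88, against 0.062 over all genes, and 7 of 8 were above 0, as were 52.7% of all genes. EIF2AK2 stood at 1.65 (adjusted p = 0.0127, edgeR) and DTX3L at 1.10 (adjusted p = 0.0192, edgeR), so 2 of the 8 passed, against 23.2% of all genes. At an unadjusted p under 0.05, 4 of 8 were higher, against 19.5% of all genes. With all 10 libraries, W-linked expression was found in controls only and cannot be fully told apart from the comparison of race with rest. In the fit without control 3, control 4 and control 5, the identity of control 1 and control 2 and the comparison of race with rest cannot be told apart. Neither PARP9 (1.38, adjusted p = 0.0542) nor IFIH1 (1.17, adjusted p = 0.117) passed in it. With race 5 also left out, a fit chosen after seeing the data, EIF2AK2, DTX3L and PARP9 passed, with adjusted p of 0.0344, 0.0412 and 0.0483 by edgeR, against 8.1% of all genes. In that fit 4 of the 8 were higher at an unadjusted p under 0.05, against 16.5% of all genes.

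With groups taken from the sample titles, which moves 6 of the 10 tables, the median was -0.048. Then 4 of the 8 genes were above 0, as were 50% of all genes. IFIH1, HELZ2 and PARP9 stood at -0.11, -0.17 and -0.19. None of the 8 was higher at an unadjusted p under 0.05, against 4.17% of all genes, and 0 passed after adjustment, against 0.0212%. The direction of the difference therefore depends on the link between tables and samples.

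The 8 genes did not vary as 1 block across birds. Over the 10 libraries, 21 of the 28 pairs had a Pearson correlation of log2 CPM above 0, with a median of 0.29. After each group's mean was subtracted, 16 of the 28 were above 0, with a median of 0.12. PARP9 and DTX3L were the closest pair at 0.94, or 0.91 after each group's mean was subtracted. IFIH1 and PARP9 stood at 0.78, and DTX3L and EIF2AK2 at 0.77. HELZ2 followed the others weakly, with 0.22 to IFIH1 and 0.24 to PARP9, and after centring these became -0.38 and -0.32. IRF1 ran against EIF2AK2 and PARP14, at -0.58 and -0.60. These values describe 10 libraries that share the group difference, and control 1 is an extreme point in many of them.

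**Figure D3:**
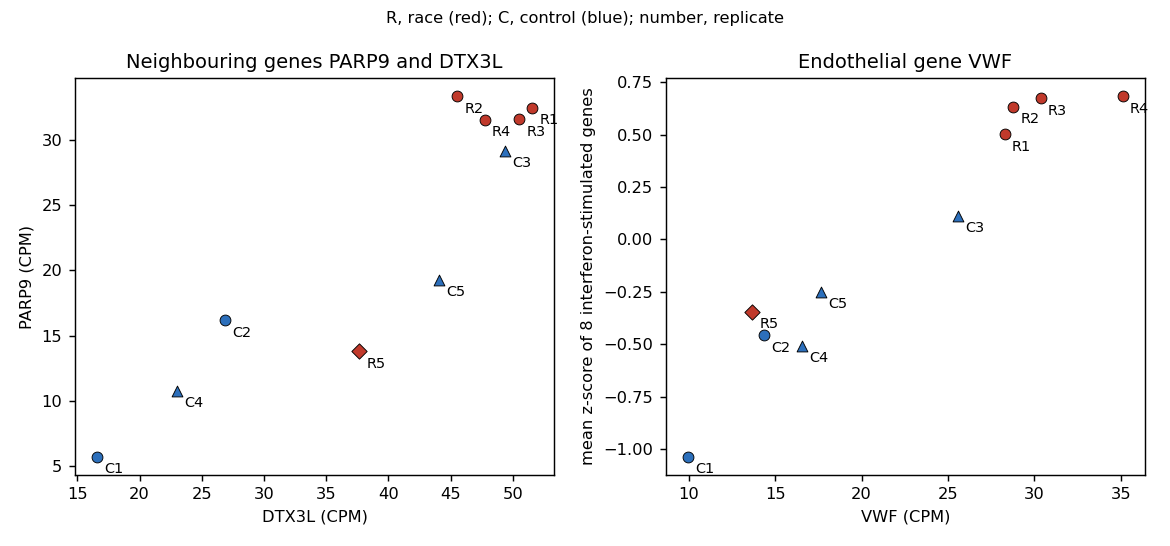
Left, PARP9 against DTX3L in CPM for each library. Right, the mean z-score of the 8 interferon-stimulated genes against VWF in CPM; race libraries are red with race 5 as a diamond, control libraries blue with control 3, control 4 and control 5 as triangles. PARP9 and DTX3L run together from control 1 at the bottom to the first 4 race libraries at the top, and race 5 lies among the controls for VWF.

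Among 12602 other genes whose average log2 CPM was 1 or more, the gene whose pattern over the 10 libraries was most like the mean z-score of the 8 was VWF, the von Willebrand factor gene of endothelial cells. Its Pearson correlation was 0.97 and its Spearman correlation 0.95, and without control 1 and race 4, the libraries farthest from the median of the score, the Pearson correlation was 0.95. After centring within groups VWF again ranked first, at 0.98. VWF had 28.3, 28.8, 30.4, 35.1 and 13.6 CPM in race 1 to race 5, against 9.93, 14.4, 25.6, 16.6 and 17.6 CPM in control 1 to control 5. Race 5 was lower than all controls except control 1, as it was for IFIH1.

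The next in rank were SLC9A3, a sodium-proton exchanger, COL28A1, a collagen, ING1, a chromatin reader, and ECM2, an extracellular matrix protein, at 0.95, 0.94, 0.93 and 0.93. GPRIN2, LOC102086205, RTEL1, a DNA helicase, LOC110357497 and MLYCD, which degrades malonyl-CoA, had correlations of 0.92 each. All 10 were the highest of 12602 values, so their size is set by the choice. None of the interferon genes of the other lists described below was among them, and the closest of those was CGAS at 0.79 in place 193.

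**Figure D4:**
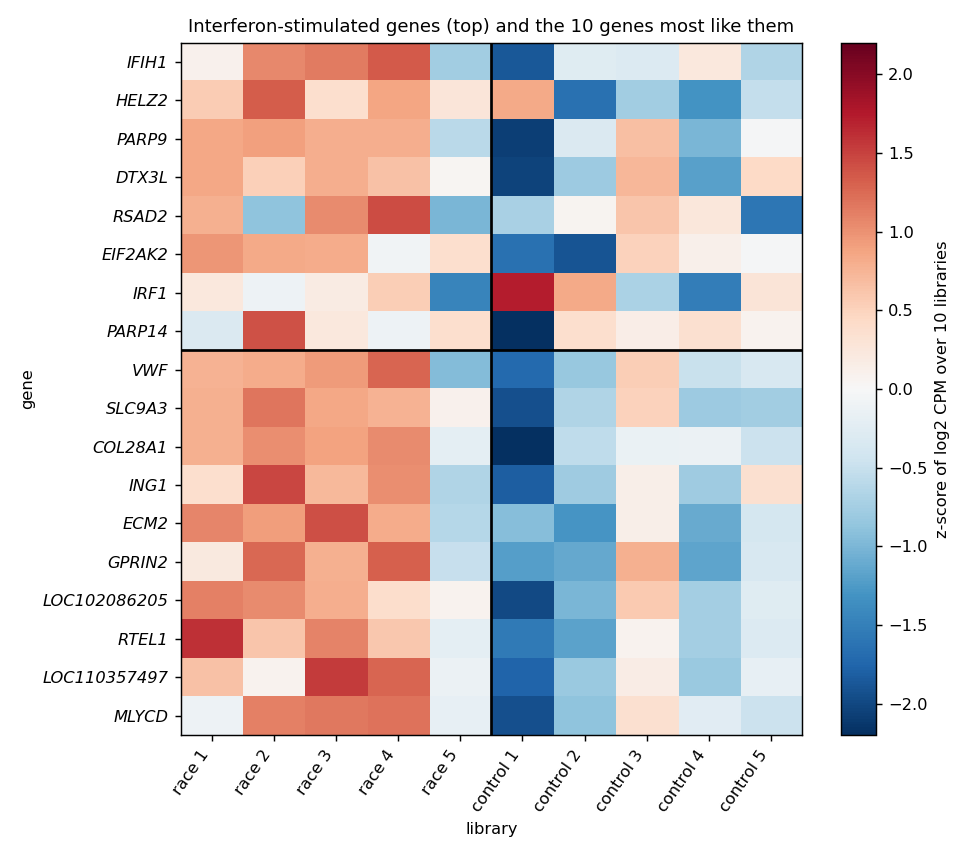
z-scores of log2 CPM over the 10 libraries for the 8 interferon-stimulated genes (above the line) and the 10 genes most like their mean (below it), race libraries left of the vertical line. The first 4 race libraries are high and control 1 low in most rows, with HELZ2 and IRF1 high in control 1. Race 5 lies below the other race libraries and within the range of the controls in most rows.

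Endothelial and pericyte markers were compared because these cells express interferon-stimulated genes. In whole tissue, fewer cells of a type and less RNA per cell cannot be told apart. Of 14 markers 13 were tested, 9 had a positive log2 fold change, against 47.4% of all genes, and the median was 0.28. At an unadjusted p under 0.05, 3 were higher and 0 lower, where all genes had 6.19% higher and 7.14% lower. Without control 3, control 4 and control 5 the median was 0.29. Then 3 were higher and 3 lower, against 19.5% and 21.2% of all genes. The median of these markers was -0.52 with groups by sample title. PECAM1, an adhesion molecule of endothelial junctions, had 44.4, 36.6, 81.7, 83.3 and 30.6 CPM in race 1 to race 5, against 11.6, 21.1, 34.9, 25.0 and 29.5 CPM in control 1 to control 5. PECAM1 stood at 1.18 ± 0.35 and VWF at 0.70 ± 0.29, with adjusted p of 0.295 and 0.354 by edgeR. TEK, the angiopoietin receptor, stood at 0.77 ± 0.32 and lies on the Z chromosome.

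The summed level of the 13 endothelial and pericyte markers did not follow the named interferon-stimulated genes in every library. It was 204 to 414 CPM in race and 215 to 430 CPM in control libraries, lowest in race 5 and highest in control 1. Race 5 was thus low in both, while control 1 was lowest in interferon-stimulated genes and highest in this sum. None of the 13 was at 0 in all libraries. The part of endothelial markers in the result was not tested.

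Genes upstream of the response were counted from lists of known roles. Sensors and their relays had 11 of 15 listed genes tested, 8 with positive values, against 47.4% of all genes, and a median log2 fold change of 0.41. At an unadjusted p under 0.05, 1 of the 11 was higher, a share near the 6.19% of all genes, and 0 were lower, against 7.14%. With groups by sample title the median was -0.23. The gene counted was CGAS, the cytosolic DNA sensor, at 1.30 ± 0.49 (adjusted p = 0.337, edgeR). CGAS had 2.18, 4.55, 4.74, 1.23 and 1.01 CPM in race 1 to race 5, against 0.54, 1.25, 1.19, 0.99 and 1.57 CPM in control 1 to control 5. The first 3 race libraries lay above all controls and the other 2 among them. With groups by sample title CGAS stood at -1.15.

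Of 11 interferon ligand symbols, only IFNG had a row, and it had 0 counts in all 10 libraries. With 3 counts as the limit that a count of 0 allows, each library allows up to 0.134 to 0.170 CPM of IFNG, for counting error only. The other ligand symbols were not analysed here.

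Receptors, kinases and the transcription factors they activate had 12 of 14 listed genes tested, with a median of 0.15. The median was also 0.15 with groups by sample title. Positive values were found in 8, against 47.4% of all genes. At an unadjusted p under 0.05, 1 of the 12 was higher, again near the 6.19% of all genes, and 0 were lower, against 7.14%. JAK2, a kinase of the interferon gamma receptor, stood at 0.64 ± 0.23 (adjusted p = 0.327, edgeR). JAK2 lies on the Z chromosome, and it averaged 36.2 ± 6.16 CPM in race and 23.2 ± 6.50 CPM in control libraries (SD, n = 5 each).

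Inhibitors of the pathway had 14 of 15 listed genes tested, 10 with positive values, against 47.4% of all genes, and a median of 0.056. Their median was 0.065 with groups by sample title. The 1 gene at an unadjusted p under 0.05, against 6.19% of all genes higher and 7.14% lower, was PTPN6, a phosphatase that restrains cytokine signalling, at 0.49 ± 0.22 (adjusted p = 0.363, edgeR). A wider list of 76 induced genes had 30 with a row and 25 tested. Of these 13 had positive values, against 47.4% of all genes, and 12 negative values, with a median of 0.015. At an unadjusted p under 0.05, 1 was higher and 1 lower, no larger a share than over all genes. TDRD7, an antiviral scaffold protein, was higher at 0.65 ± 0.18 (adjusted p = 0.272, edgeR) and lies on the Z chromosome. SERPING1, the complement C1 inhibitor, was lower at -1.10 ± 0.41 (adjusted p = 0.328, edgeR), or -0.68 without control 1, where it stood at 16.5 CPM. The wider list had a median of 0.11 without race 5, but of -0.13 without control 3, control 4 and control 5 and of -0.21 with groups by sample title. Without those 3 controls 5 of its genes were higher and 7 lower at an unadjusted p under 0.05, against 19.5% and 21.2% of all genes.

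**Figure D5:**
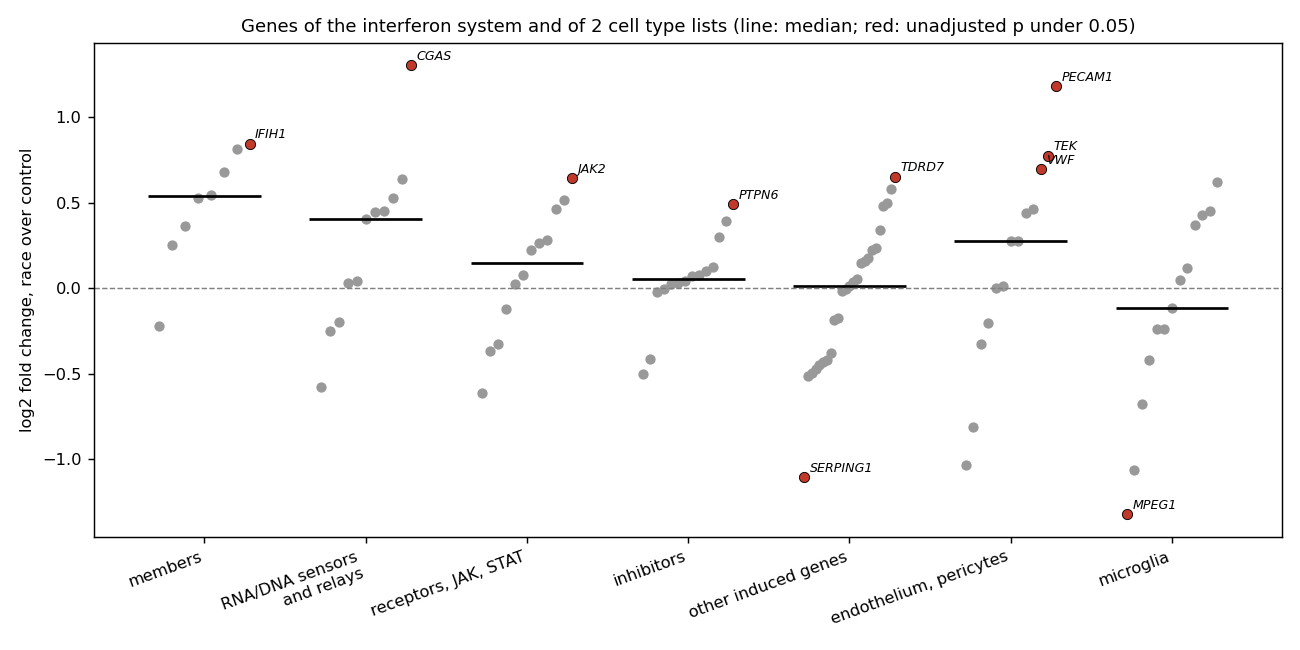
Log2 fold change, race over control, of each tested gene in the lists of the interferon system and in 2 cell type lists, sorted within each list, with the list median as a line and genes at an unadjusted p under 0.05 in red and named. The medians run between 0.54 for the 8 named genes and -0.12 for microglia markers.

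Markers of immune and blood cells were counted in the same way. Microglia markers had 13 of 20 listed genes tested, 6 with positive values, against 47.4% of all genes, and a median of -0.12. Of the 13 microglia markers, 0 were higher and 1 lower at an unadjusted p under 0.05, against 6.19% and 7.14% of all genes. MPEG1, a pore-forming protein of macrophages, stood at -1.32 ± 0.55 and at -0.46 without control 1. The summed level of the 15 microglia markers with a row was 60.0 to 82.3 CPM in race and 27.6 to 128 CPM in control libraries. Markers of lymphocytes were near 0, with 8 of 11 having a row, 0 passing the filter on low counts, and sums of 0.96 to 1.91 CPM in race and 0.91 to 2.80 CPM in control libraries. Red cell markers had 4 tested genes, all with negative values and a median of -0.096, against -0.026 over all genes. Without race 5 their median was -0.036, and 1 of the 4 was above 0. With all libraries 0 were higher and 1 lower at an unadjusted p under 0.05, against 6.19% and 7.14% of all genes. SLC4A1, the anion exchanger of red cells, stood at -1.26 ± 0.49. The part of these cell types in the result was not tested.

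The markers that define cerebellum were present in every library. All 13 with a row were tested, and they summed to 3219 to 3797 CPM in race and 2208 to 4462 CPM in control libraries. Of the 13, 7 had positive values, against 47.4% of all genes, and 6 negative values, with a median log2 fold change of 0.013. Only 1 was higher and 1 lower at an unadjusted p under 0.05, against 6.19% and 7.14% of all genes. PCP4, a Purkinje cell gene, stood at -1.38 ± 0.27 and PAX6, a granule cell gene, at 0.37 ± 0.16. Forebrain markers summed to 3.19 to 8.63 CPM in race and 4.16 to 237 CPM in control libraries, the highest in control 4. Of these markers BCL11B, LHX6 and TBR1 stood at -4.51, -3.22 and -3.88, and at -0.54, -0.27 and 0.39 without control 4. Without control 4 the median of the 8 interferon-stimulated genes was 0.53.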

How the data were processed

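Whole cerebellum RNA of 5 race and 5 control pigeons, with integrity numbers between 9.6 and 10.0, was sequenced as 100 bp read pairs, per the labels' protocols. The authors deposited raw counts per gene in 1 table for each sample. The submitters' processing notes list HTSeq 0.13.5, STAR 2.7.10a and fastp 0.23.2, and no source used here gives the build, annotation or strand setting. Reads where PARP9 and DTX3L or RSAD2 and CMPK2 overlap are therefore uncertain.

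Rows that name no gene, which are HTSeq's counters of unassigned reads and any row with an empty name, held 18.1% to 23.4% of counts and were left out. Genes kept by filterByExpr (minimum count 10), among them all 8 with a row, were scaled by TMM and tested two-sided in edgeR 4.0.16 under R 4.3.3, with Benjamini-Hochberg adjustment over 14172 genes at 0.05. Depth limits RSAD2 most. P-values treat each library as 1 bird. CPM uses TMM-scaled totals of the tested genes, and log2 CPM a prior count of 2. Neighbours and chromosomes are from RefSeq's gene table for bColLiv1.pat.W.v2, which matched 22268 of 22547 names. Exact permutation tests used all 252 assignments, or 126 without race 5.

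The genes, lists and settings were chosen with earlier results of these data known. All 8 genes were named, as were the members of each other list at an unadjusted p under 0.05, to a limit of 6, except for some not reported here. Alternatives were other scalings (RLE, library size) and filters, limma voom (limma 3.58.1), DESeq2 1.42.0, fits without chosen libraries, and groups by sample title. The pipeline was checked on simulated counts.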

Additional observations from a re-analysis of the deposited data

Results flagged for a closer look

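In 2 of 16 sets of 5 libraries, 1 for each gene and group, 1 library lay far from the other 4, where chance gives about 1 in 20. PARP9 stood at 13.8 CPM in race 5, against 31.5 to 33.3 CPM in the other 4 race libraries. For PARP14 control 1 held 5.94 CPM, and the other 4 control libraries held 14.6 to 16.1 CPM.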

How the results depend on the processing

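No paired analysis was possible because replicate numbers were given in accession order, and no label pairs a race bird with a control bird. Of the 8 genes, 7 stayed above 0 under RLE and library size scaling, limma voom, DESeq2 and without a filter, and 6 of 7 with a filter of 1 CPM in 5 libraries, which dropped RSAD2. With 1 library left out in turn, the median of the 8 ran from 0.43 (without race 4) to 0.74 (without control 3), the number above 0 from 7 to 8, the number higher at an unadjusted p under 0.05 from 0 to 3, and the genes called over all genes from 0 to 1. IRF1 ran from -0.39 without control 4 to 0.032 without control 1, the 1 change of sign among these fits. The number higher at an unadjusted p under 0.05, 1 in the edgeR fit, was 2 with library size scaling, 3 with DESeq2, 5 with limma voom and 4 without control 3, control 4 and control 5. Over all genes, 0 were called in the edgeR fit and 0 by limma voom, against 261 by DESeq2, 3416 without control 3, control 4 and control 5 and 3 with groups by sample title. Unadjusted p-values under 0.05 numbered 1889 by edgeR and 1660 by limma voom. The edgeR split was 877 higher and 1012 lower with TMM, and 1087 higher and 597 lower with library size scaling. With groups by sample title the median was -0.048, with 4 genes above 0, 0 at an unadjusted p under 0.05, and IFIH1, HELZ2 and PARP9 at -0.11, -0.17 and -0.19. Fits chosen after seeing the data called 40 genes without control 1 and control 4, where the median was 0.41, and 1185 without race 5, control 3, control 4 and control 5. That last fit gave a median of 1.01, with 4 of the 8 higher at an unadjusted p under 0.05, against 16.5% of all genes. EIF2AK2, DTX3L and PARP9 passed in it. The cause of these shifts was not tested. Of the 10 genes most like the 8, 4 remained with the median of z-scores, 2 after centring within groups and 10 with a prior count of 0.5.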

Other observations

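Control 1 and control 2 were low in some interferon genes in which control 3, control 4 and control 5 lay nearer to the race birds, a pattern noticed after the values were seen. IFNAR1, a chain of the type I interferon receptor, had 11.2, 12.6, 11.0, 14.0 and 12.4 CPM in race 1 to race 5, against 3.995, 6.02, 12.8, 10.6 and 9.44 CPM in control 1 to control 5. IFNGR1, a chain of the interferon gamma receptor, had 34.5 to 49.9 CPM in race libraries, against 14.6 and 28.7 CPM in control 1 and control 2 and 53.2 to 57.2 CPM in the other controls. EIF2AK2 was likewise lowest in control 1 and control 2. STAT2 and STAT3 ran the other way. STAT3 had 363 and 142 CPM in control 1 and control 2. It had 82.8 to 107 CPM in the other controls and 88.9 to 119 CPM in race libraries. Of the 12 tested receptor, kinase and transcription factor genes, 6 were higher and 2 lower without control 3, control 4 and control 5. Both counts are at an unadjusted p under 0.05 by edgeR, against 19.5% and 21.2% of all genes.

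RIGI, a cytosolic RNA sensor that is missing in chicken, had 26.0, 43.8, 47.2, 10.6 and 48.4 CPM in race 1 to race 5, against 16.4, 28.9, 30.2, 29.7 and 23.5 CPM in control 1 to control 5. Race 5, low in IFIH1 and PARP9, was the highest library for RIGI, which lies on the Z chromosome.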
